A study of Mus musculus with 39 samples.

Results

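Mouse embryonic stem cells (ESCs) treated with Wnt3a for 1 day were compared with cells kept for 1 day in the same medium without growth factors. The comparison used 6 of the 39 arrays of the series, 3 labelled as Wnt3a and 3 as control, taken by their labels. All 39 arrays were 1-colour (Cy3) Agilent mouse miRNA arrays of total RNA, with 1 array for each sample. The series followed the differentiation of ESCs towards endoderm under Wnt3a, Activin A or both, over 3 time points. The ESCs of both groups had been grown on feeder fibroblasts with serum and LIF, freed of feeders on gelatin and plated on collagen. The Wnt3a group then received 50 ng/ml Wnt3a in RPMI medium with B27 and, by the labels, sodium butyrate, and the control group is labelled as treated without growth factors. The labels number the samples of each group 1 to 3 and do not say whether they were separate cultures. The spread between samples may therefore be technical. The p-values of the main fit measure the spread within all groups of day 1, those of the other treatments included.

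Wnt3a is a secreted ligand that binds Frizzled and LRP receptors on the cell surface, which stops the breakdown of beta-catenin and lets it switch on target genes with TCF factors in the nucleus. In mouse ESCs this pathway is known for helping to maintain self-renewal, and in the early embryo for specifying the primitive streak. MiRNAs are short RNAs that repress messenger RNAs by pairing through a seed near their 5′ end, and mouse ESCs are known for high levels of the miRNAs of the miR-290 cluster, whose last member is miR-295.

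The sequences of the miRNAs on which the comparison turned are given first, to show which of them share a seed. They are RefSeq mature sequences on GRCm38.p6, written 5′ to 3′ with the seed, bases 2 to 8, in capitals, and 14 of 17 names looked up were matched. MiRNAs are called by the names on the array, so miR-290-5p is miR-290a-5p in RefSeq and a star marks the strand usually found at the lower level. Of the strands of the miR-290 cluster that rose, miR-290-5p (chr7:3218639-3218660, plus strand), miR-292-5p (chr7:3219200-3219221, plus strand) and miR-294* (chr7:3220655-3220676, plus strand) rose furthest.
miR-290-5p: aCUCAAACuaugggggcacuuu
miR-292-5p: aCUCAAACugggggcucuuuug
miR-294*: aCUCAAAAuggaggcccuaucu
MiR-294 (chr7:3220691-3220712, plus strand) comes from the other strand of the miR-294* hairpin, and miR-295 (chr7:3220815-3220837, plus strand) from another hairpin of the same cluster. MiR-302b (chr3:127545275-127545297, plus strand) and miR-302d (chr3:127545665-127545687, plus strand) come from another cluster. All 4 share the seed AAGUGCU.
miR-294: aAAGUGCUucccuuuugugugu
miR-295: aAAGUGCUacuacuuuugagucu
miR-302b: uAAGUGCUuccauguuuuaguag
miR-302d: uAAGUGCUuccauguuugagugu
MiR-202-3p (chr7:139957695-139957716, minus strand) and let-7a (chr13:48538239-48538260, minus strand), both lower with Wnt3a, have the seeds GAGGUAU and GAGGUAG. MiR-96 (chr6:30169506-30169528, minus strand) was lower too, and miR-31 (chr4:88910614-88910635, minus strand) higher.
miR-202-3p: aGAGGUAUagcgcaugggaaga
let-7a: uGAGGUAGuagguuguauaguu
miR-96: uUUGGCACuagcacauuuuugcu
miR-31: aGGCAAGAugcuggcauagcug

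The 3 control arrays lay on one slide and the 3 Wnt3a arrays on another, so that treatment and slide cannot be told apart from these 6 arrays alone. At day 1 the group labelled Activin A was the only link between these slides: 2 of its arrays shared the control slide and 1 the Wnt3a slide. Its gap between slides (the array on the Wnt3a slide minus the mean of the other 2, log2) is therefore given beside the main results. The Wnt3a difference from a fit with slide as a term over the 12 arrays of day 1 is given too. The main fit, without that term, counts this gap as spread within the group labelled Activin A. The gap therefore enters the SE and p-value of the Wnt3a difference. The label of that group is in doubt. In the authors' deposited matrix, each of the 18 columns labelled Activin A or Activin A plus Wnt3a had the rank order of the scanner array that the labels give to the other of these treatments at the same day and replicate number (Spearman's rho rounds to 1.0, against 0.918 to 0.980 with its own array). The sources used here do not settle which is right. The other 21 columns, control and Wnt3a among them, matched their own arrays, and the gap and the fits treat the same 3 arrays as 1 group under either name. The slides differed in Agilent's own control probes. The probe miRNABrightCorner30 read 550.2 to 795.9 on the 5 day 1 arrays of the control slide and 232.4 to 296.7 on the 7 of the Wnt3a slide, and hur_4 read 1554 to 2500 and 3218 to 4457. Of 650 miRNAs on the array, 209 ± 26.6 (SD, n = 3) were detected in control and 230 ± 16.8 in Wnt3a samples (exact two-sided permutation test, p = 0.4, where 0.1 is the smallest p possible). The signals of the detected miRNAs summed to 61579 ± 5775 in control and 79825 ± 12137 in Wnt3a samples (exact permutation test, p = 0.1). Pearson's r between arrays over 174 miRNAs was 0.990 to 0.997 within groups and 0.977 to 0.985 between them.

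The ESC origin of the samples was visible in all 6 arrays. The 5 brightest mouse miRNAs were miR-294, miR-292-3p, miR-295, miR-293 and miR-291a-3p, all of the miR-290 cluster, with mean log2 levels of 12.18 to 13.32 in both groups. All 8 muscle and mesoderm miRNAs and all 9 endoderm, gut and liver miRNAs listed were undetected on all 6 arrays. MiRNAs known from fibroblasts were present, with 9 of 24 detected on all 6 arrays and a summed log2 level of 12.59 to 12.60 in control and 12.68 to 12.75 in Wnt3a samples.

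After 1 day of Wnt3a, few miRNAs differed from control by a large factor and many by a small one. Signals were quantile normalized, and differences are on the log2 scale. Of 240 miRNAs tested with limma, 10 were called (4.17%), that is, had an adjusted p under 0.05 and a difference of more than 2-fold, of which 7 were higher (2.92%) and 3 lower (1.25%) with Wnt3a. At an adjusted p under 0.05 and any size there were 48 (20%), 24 higher and 24 lower, and at an unadjusted p under 0.05 there were 92 (38.3%). The 48 became 63 in a fit of only the control and Wnt3a arrays. They became 75 without the array labelled Activin A replicate 3, and 49 and 47 without replicates 1 and 2 of that group. Scaling each array to the 75th percentile of the miRNAs detected on all 39 arrays gave 16 higher and 77 lower, no scaling between arrays gave 13 and 1, and 1 fit of all 39 arrays gave 33 and 13. Without scaling, the median difference over the miRNAs detected on all 6 arrays was 0.36, against −0.04 after quantile normalization. Among the 175 miRNAs detected on all 6 arrays, 41 passed (23.4%), and 3 of them (1.71%) by more than 2-fold. These were miR-150 and miR-290-5p, which rose, and miR-202-3p, which fell. The groups did not overlap for 83 of the 175 (47.4%). With slide as a term, 1 of 240 miRNAs passed (0.417%), and it was miR-150. Normexp background correction of the spot signals left 0 of 240 past the threshold in limma, with 48 at an unadjusted p under 0.05. This setting adds an offset of 50 to each spot, which shrinks log2 differences of low signals. How much of the change under normexp came from the offset was not tested. Without the arrays with fewest and most detected miRNAs, control replicate 1 and Wnt3a replicate 2, a setting chosen after seeing the data, 7 passed and miR-150 alone was called.

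**Figure D1:**
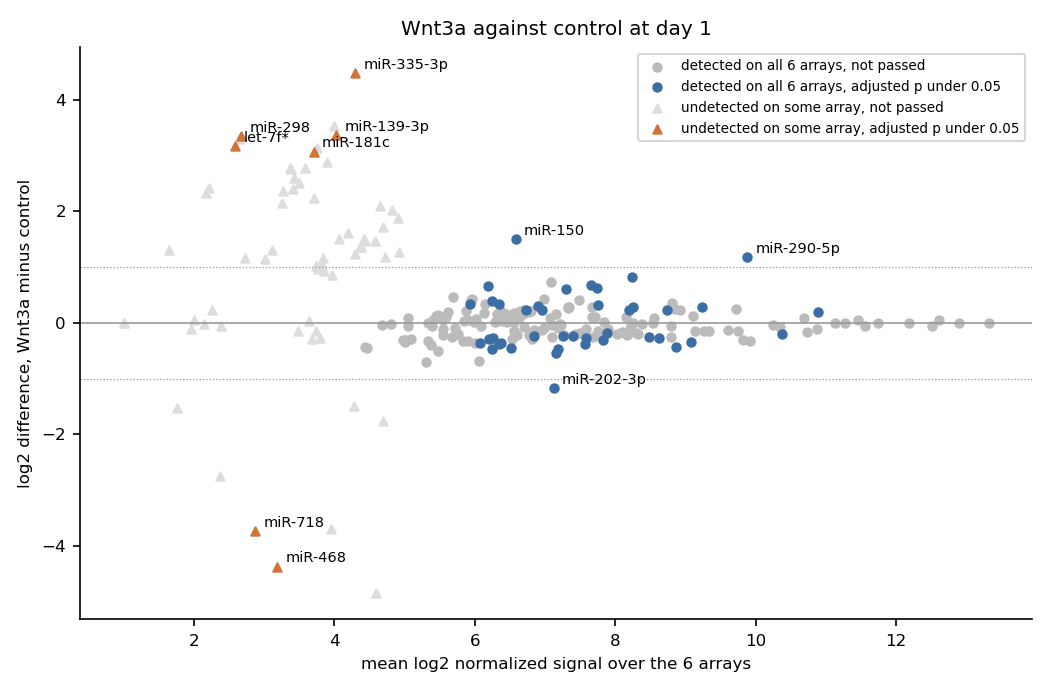
Log2 difference between Wnt3a and control at day 1 (y axis) against the mean log2 normalized signal over the 6 arrays (x axis) for the mouse miRNAs tested. Circles mark miRNAs detected on all 6 arrays and triangles those undetected on at least 1; the 10 called miRNAs are named. Among the circles, miR-150, miR-290-5p and miR-202-3p lie beyond the dotted lines at 2-fold, and the triangles lie at low mean signals because undetected values stand at the floor.

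MiR-150, which is known from mature lymphocytes, gave the clearest difference. Its log2 levels were 5.90, 5.78 and 5.81 in the control samples and 7.31, 7.31 and 7.38 in the Wnt3a samples. All Wnt3a samples lay above all control samples, by far more than the spread within either group. The difference was 1.503 (SE 0.08), or 2.83-fold, with an adjusted p of 3.71e-06 in limma. The arrays labelled Activin A stood near control on both slides, at 5.85 and 5.71 on the control slide and 6.01 on the Wnt3a slide. With slide as a term the Wnt3a difference was 1.27 (SE 0.10, adjusted p = 0.000584 in limma). After normexp background correction it was 0.59 (adjusted p = 0.076 in limma), which ends the call, and under the other alternatives it lay between 1.27 and 2.13 and passed each time. Undifferentiated ESCs, all on the control slide, had a level of 5.57 ± 0.16 (SD, n = 3), beside a control mean of 5.83 on that slide. The arrays labelled Activin A plus Wnt3a at day 1, all on the Wnt3a slide, had 7.08 ± 0.08 (SD, n = 3). The 1 array labelled Activin A on that slide read 6.01. Between undifferentiated ESCs and the arrays labelled Activin A plus Wnt3a, slide and group cannot be told apart.

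The total signals of miR-150 before normalization were 17.4, 27.8 and 23.2 in the control samples and 82.2, 115 and 98.2 in the Wnt3a samples. Both probes of miR-150 showed the separation. The first read 17.4 to 27.8 in control and 63.0 to 88.1 in Wnt3a samples, and the second 3.39 to 8.09 and 19.1 to 27.4. Of the other 11 blood-lineage miRNAs listed, 9 were undetected on all 6 arrays. MiR-155, a miRNA of activated lymphocytes, had a difference of −0.35 (adjusted p = 0.066, and 0.045 with the replicate block, in limma), and miR-223, a myeloid miRNA, was detected in 0 of 3 control and 2 of 3 Wnt3a samples.

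**Figure D2:**
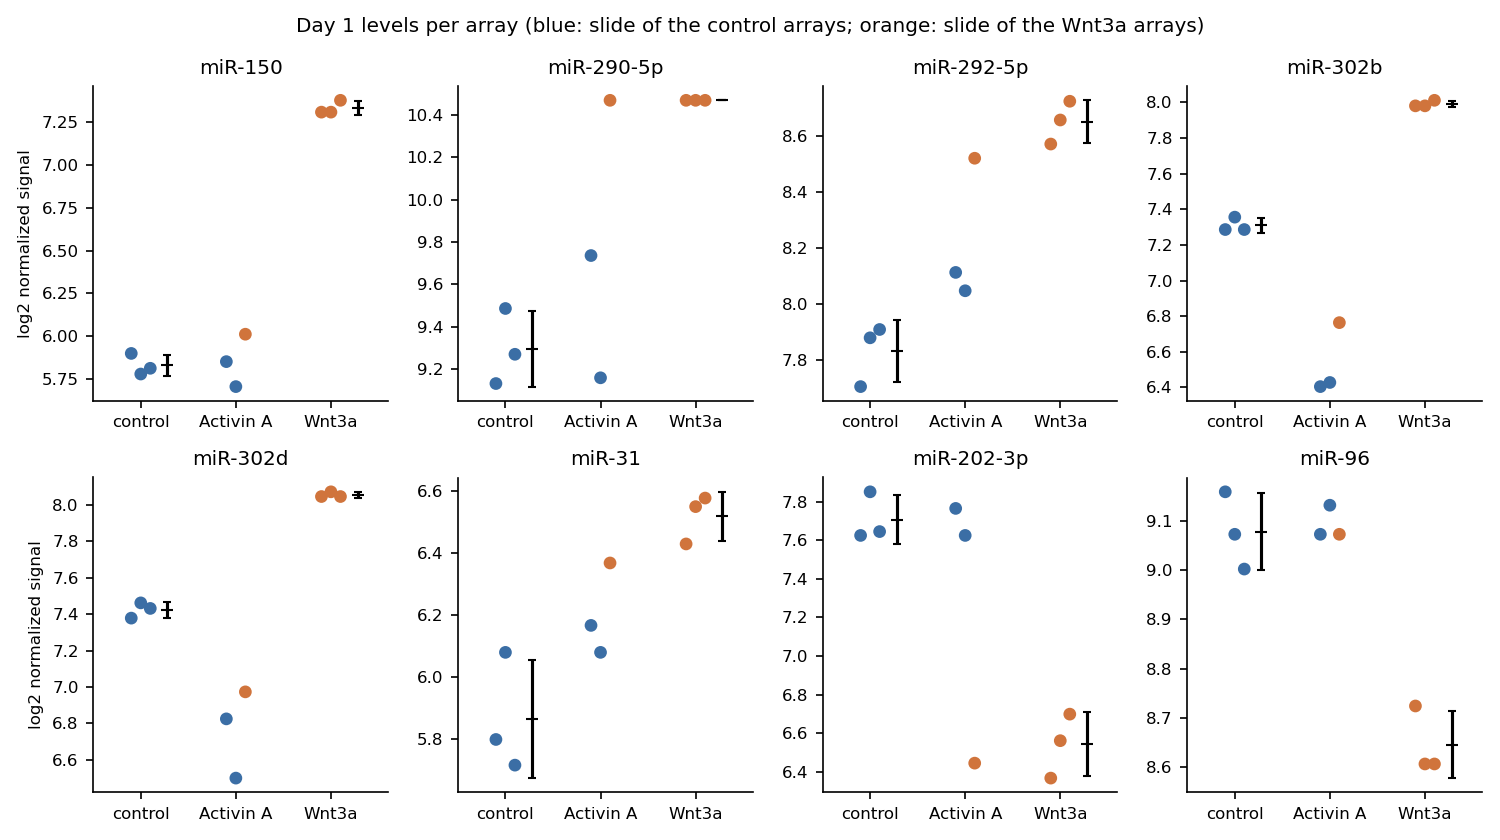
Log2 normalized signal (y axis) of 8 miRNAs on each day 1 array labelled control, Activin A or Wnt3a. Each point is 1 array, blue for the slide of the control arrays and orange for the slide of the Wnt3a arrays, and the black bars are the mean and SD of the 3 control or Wnt3a arrays. MiR-150 is near the control level in all 3 arrays labelled Activin A, while for miR-290-5p and miR-202-3p the array labelled Activin A on the Wnt3a slide lies with or beside the Wnt3a arrays.

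A group of strands of the miR-290 cluster was higher with Wnt3a, though only 2 of its 5 members stayed above 0 after normexp background correction. Of 14 on the array 13 were tested, 5 rose and 0 fell, with a median difference of 0.22 against 0.01 over all mouse miRNAs tested. The 5 that rose, of the 24 miRNAs that rose in all (10% of those tested), were all 5p or star strands. Over these 5 the median difference was 0.62, and −0.07 after normexp background correction. Under that correction miR-290-5p stood at 0.62 and miR-292-5p at 0.84, neither passing, and the others lay below 0. MiR-290-5p read 9.13, 9.49 and 9.27 in control and 10.47 in each of the 3 Wnt3a samples, a difference of 1.17 (SE 0.27, adjusted p = 0.016 in limma). The 3 equal values come from quantile normalization, which gives equal values to equal ranks, and the total signals before it were 261.9, 379.2 and 320.3 in control and 591, 833 and 684 in Wnt3a samples. The groups did not overlap on either scale. For miR-290-5p the gap between slides was 1.02 in the group labelled Activin A, and the Wnt3a difference with slide as a term was 0.15 (adjusted p = 0.90 in limma). The miR-290-5p call was lost, with an adjusted p of 0.051 to 0.056 in limma, when any of the Wnt3a arrays or control replicate 1 or 3 was left out.

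MiR-292-5p read 7.70, 7.88 and 7.91 in control and 8.57, 8.66 and 8.72 in Wnt3a samples. Its difference of 0.82 (SE 0.13, adjusted p = 0.0045 in limma) stood beside a gap between slides of 0.44, and was 0.38 with slide as a term (adjusted p = 0.43 in limma). MiR-294* read 6.80, 7.08 and 7.12 in control and 7.60, 7.60 and 7.65 in Wnt3a samples. Neither miRNA overlapped between the groups, and the difference of miR-294* was 0.62 (SE 0.14, adjusted p = 0.016 in limma) with a gap of 0.46, and 0.16 with slide as a term (adjusted p = 0.83 in limma). It did not pass without Wnt3a replicate 1 or 3 or control replicate 1 (adjusted p = 0.053, 0.056 and 0.055 in limma). MiR-295* rose by 0.40 and miR-291a-5p by 0.22, and with slide as a term they stood at 0.26 and 0.20 without passing (adjusted p = 0.43 and 0.24 in limma). The remaining 2 of these 7 strands, miR-293* and miR-291b-5p, did not pass. MiR-293* was undetected on some control arrays. MiR-291b-5p was detected in 0 of 3 control and 3 of 3 Wnt3a samples (adjusted p = 0.075 in limma).

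Of the 3p and unstarred strands, whose seed in miR-294 and miR-295 is AAGUGCU, none of the 6 tested passed in limma, and their differences ran from −0.05 to 0.15. The difference between the kinds of strand was not tested. MiR-294, the brightest miRNA, held the top rank on all 6 arrays, so that quantile normalization gave 13.32 on each and fixed its difference at 0. Its total signals before normalization were 8389, 10124 and 9059 in control and 11670, 15313 and 12999 in Wnt3a samples. These do not overlap, but 161 of 174 miRNAs detected on all 6 arrays were also higher before scaling, with a median difference of 0.36. MiR-292-3p and miR-291a-3p also kept the same rank on all 6 arrays, at 12.89 and 12.18, which fixed their differences at 0. MiR-293 read only 12.48 or 12.64. A strand at a fixed rank could not pass, so its 0 does not show that its level stayed the same. Without scaling the median difference was 0.98 over the 5p and star strands and 0.47 over the 3p and unstarred strands. After normexp background correction these medians were −0.07 and 0. The split between strands was made after the values were seen.

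**Figure D3:**
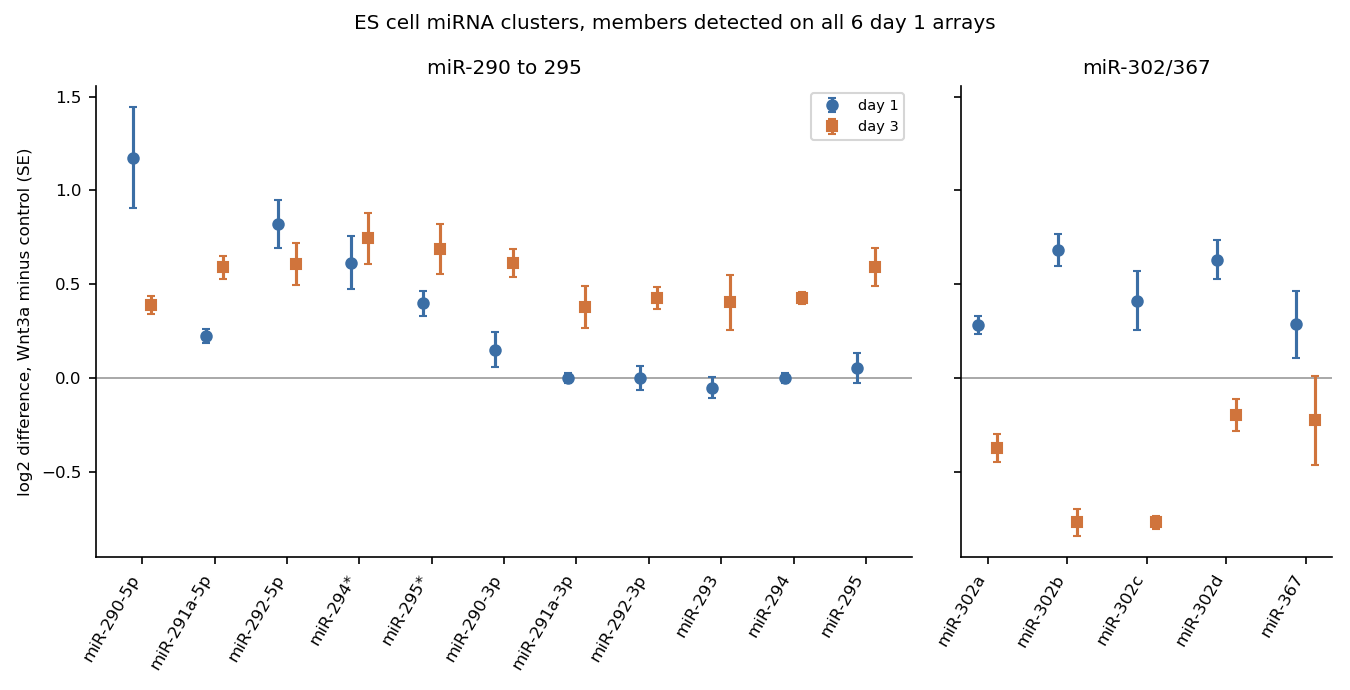
Log2 difference between Wnt3a and control (y axis, bars are SE) at day 1 (blue circles) and day 3 (orange squares) for members of the miR-290 cluster and of the miR-302 cluster detected on all 6 day 1 arrays. In the first panel the 5 strands on the left lie above 0 on both days (at day 1 their median falls to −0.07 after normexp background correction). The 6 on the right lie near 0 at day 1, where quantile normalization fixed miR-294, miR-292-3p and miR-291a-3p at 0. In the second panel all 5 members lie above 0 at day 1 and below 0 at day 3.

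The miR-302 cluster, which also holds miR-367 and is known for high levels in the primed epiblast, was higher with Wnt3a, and its median difference stayed above 0 under each scaling tried, although miR-302b fell to 0.0063 after normexp background correction. Of 8 members on the array 5 were tested and 3 rose, against 10% of all miRNAs tested, with a median difference of 0.41. MiR-302b read 7.29, 7.36 and 7.29 in control and 7.98, 7.98 and 8.01 in Wnt3a samples. MiR-302d read 7.38, 7.46 and 7.43 in control and 8.05, 8.07 and 8.05 in Wnt3a samples. The groups did not overlap for either miRNA. The differences were 0.68 for miR-302b (SE 0.09, adjusted p = 0.0022 in limma) and 0.63 for miR-302d (SE 0.10, adjusted p = 0.0045 in limma). MiR-302a rose by 0.28 (SE 0.05, adjusted p = 0.0053 in limma), while miR-302c, at 0.41, and miR-367, at 0.29, did not pass.

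The gap between slides was 0.35 for miR-302b, 0.31 for miR-302d and −0.11 for miR-302a. With slide as a term the differences were 0.33, 0.32 and 0.39, none of which passed (adjusted p = 0.072, 0.43 and 0.072 in limma). The arrays labelled Activin A read lower than both groups for miR-302b, at 6.40 and 6.43 on the control slide and 6.76 on the Wnt3a slide.

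**Figure D4:**
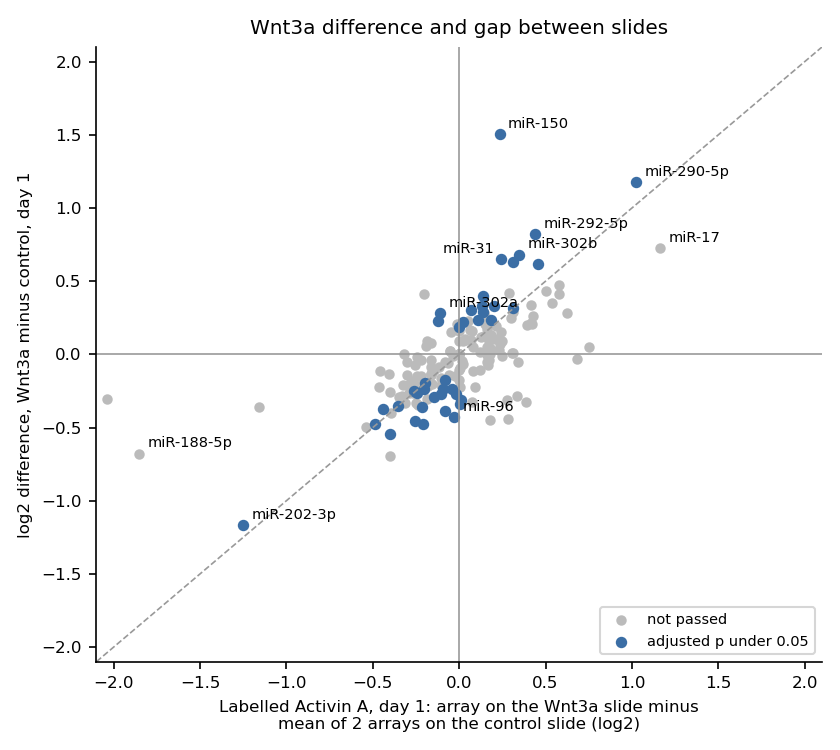
Log2 difference between Wnt3a and control at day 1 (y axis) against the gap between the same slides in the group labelled Activin A (x axis) for 174 mouse miRNAs detected on all 6 arrays; each point is 1 miRNA and the dashed line marks equal values. MiR-290-5p and miR-202-3p lie near the dashed line, miR-150 lies far above it, and miR-302a and miR-96 lie at gaps of −0.11 and −0.03.

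Across the 174 mouse miRNAs detected on all 6 arrays, the Wnt3a difference and the gap between slides in the group labelled Activin A went the same way, with a Pearson's r of 0.53 and a Spearman's rho of 0.67. These points are miRNAs measured on the same 9 arrays and are not independent replicates. Of the 41 that passed, 36 had a gap of the same sign, and in 19 the gap was more than 50% of the Wnt3a difference. The median size of the difference of these 41 went, with slide as a term, from 0.33 to 0.17 and their median SE from 0.07 to 0.10.

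MiR-202-3p, which shares most of its seed with let-7, fell the furthest of the miRNAs detected on all 6 arrays. It read 7.63, 7.85 and 7.65 in control and 6.37, 6.56 and 6.70 in Wnt3a samples, without overlap. The difference was −1.17 (SE 0.30, adjusted p = 0.027 in limma), and it did not pass when any 1 of the 6 arrays was left out (adjusted p = 0.057 to 0.093 in limma). The gap between slides was −1.25 in the group labelled Activin A, and with slide as a term the difference was 0.086 (adjusted p = 0.95 in limma). MiR-96, a miRNA of the miR-183 cluster of sensory cells, read 9.158, 9.072 and 9.002 in control and 8.72, 8.61 and 8.61 in Wnt3a samples. Its groups did not overlap either, its difference was −0.43 (SE 0.05, adjusted p = 0.0022 in limma), and its gap between slides was −0.03. With slide as a term the difference of miR-96 was −0.40 (adjusted p = 0.13 in limma), without any scaling it was 0.016, and after normexp background correction 0.30. MiR-210 and miR-188-5p were lower by 0.70 and 0.68 without overlap, but did not pass (adjusted p = 0.58 and 0.32 in limma). For miR-188-5p the SD was 0.058 in control and 0.075 in Wnt3a samples, against an SE of 0.49 in limma. Its gap between slides, which enters that SE, was −1.85, and with slide as a term the difference was 1.17 (adjusted p = 0.43 in limma).

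Members of the let-7 family, which is known for rising as ESCs leave the pluripotent state, lay slightly lower with Wnt3a, but not after normexp background correction, without scaling or with slide as a term. All 8 detected on all 6 arrays had a negative difference, from −0.26 to −0.15, where 74 of the 174 mouse miRNAs so detected were above 0. Of the 8 only let-7a passed, against 23.4% of the 175 miRNAs detected on all 6 arrays. Let-7f*, a star strand of the family undetected in control samples, was called higher and is given below. Let-7a read 8.78, 8.72 and 8.78 in control and 8.48, 8.52 and 8.48 in Wnt3a samples, a difference of −0.26 (SE 0.07, adjusted p = 0.025 in limma). Without any 1 of the Wnt3a arrays or control replicate 1 or 3 it did not pass (adjusted p = 0.058 to 0.082 in limma). Let-7a with slide as a term was at −0.021 (adjusted p = 0.95 in limma), 7 of the 8 were above 0 and their median was 0.082, beside a median gap between slides of −0.28. The direction also turned with the scaling. The median over the 8 was −0.22 after quantile normalization, 0.12 after normexp background correction and 0.19 without scaling, where the median over all 174 miRNAs was 0.36.

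The imprinted Dlk1-Dio3 cluster, a large group of miRNAs expressed from the maternal chromosome, was lower with Wnt3a after quantile or 75th percentile scaling, and had a median above 0 after normexp background correction or without scaling. Of 36 members tested, 11 fell and 0 rose, where 24 of 240 tested miRNAs fell in all (10%), and the median difference was −0.20. The largest of these was miR-154*, which read 7.46, 7.43 and 7.38 in control and 6.82, 7.05 and 6.97 in Wnt3a samples. Its groups did not overlap, and its difference was −0.47 (SE 0.07, adjusted p = 0.0045 in limma), or −0.27 with slide as a term (adjusted p = 0.43 in limma). MiR-410 fell by 0.39, miR-379 by 0.31, miR-495 by 0.27 and miR-409-3p by 0.23, and miR-127 was at 0.00. Over the 29 members detected on all 6 arrays the gap between slides had a median of −0.085, and the Wnt3a difference with slide as a term one of −0.14. Over these 29 the median was −0.23 after quantile normalization, −0.43 when arrays were scaled to the 75th percentile and 0.18 without scaling. Set against the median of all 174 miRNAs it was −0.19, −0.18 and −0.18 under these settings, and −0.08 after normexp background correction.

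The other lists gave few changes. Among the fibroblast and mesenchymal miRNAs 12 were tested, 2 rose and 0 fell, against 10% each way over all miRNAs tested. MiR-31 read 5.80, 6.08 and 5.72 in control and 6.43, 6.55 and 6.58 in Wnt3a samples, without overlap (difference 0.65, SE 0.11, adjusted p = 0.0045 in limma), with a gap between slides of 0.24 and a difference of 0.41 with slide as a term (adjusted p = 0.43 in limma). MiR-125b-5p read 10.74, 10.81 and 10.81 in control and 10.98 in each Wnt3a sample, a difference of 0.19. Whether remaining feeder fibroblasts had a part in these values was not tested, and less RNA per cell cannot be told apart from fewer cells of a type. The miR-17-92 clusters and their relatives are known for promoting proliferation. Of their 17 members tested, miR-363 and miR-18b fell, by 0.34 and 0.27, and 0 rose past the threshold, where 10% of all miRNAs tested fell. MiR-17 was higher by 0.73 without overlap but did not pass (SE 0.30, adjusted p = 0.12 in limma). Its gap between slides was 1.16, and its difference with slide as a term was −0.43 (adjusted p = 0.65 in limma). None of the 5 miR-200 family members tested passed, nor did any of the 3 neural or 20 miRNAs of the repeat cluster of miR-297, miR-466, miR-467 and miR-669. MiR-181d, of a family with a role in lymphocytes and differentiation, fell by 0.54 with a gap between slides of −0.40. It was at −0.14 with slide as a term (adjusted p = 0.83 in limma), and it did not pass without Wnt3a replicate 1 or 3 or control replicate 1 or 3 (adjusted p = 0.053 to 0.062 in limma).

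The remaining 7 called miRNAs were undetected on some of the 6 arrays, and their fitted differences depend on the floor given to undetected values. MiR-468 was detected in 3 of 3 control and 0 of 3 Wnt3a samples and was at least 2.44-fold lower with Wnt3a. The arrays labelled Activin A read 5.50 and 4.21 on the control slide, and miR-468 was undetected on the Wnt3a slide. Its gap between slides was −3.86 beside a fitted difference of −4.37, and with slide as a term the difference was −0.52 (adjusted p = 0.77 in limma). MiR-718 had the same pattern of detection and was at least 1.57-fold lower, though it did not pass without any 1 of the Wnt3a arrays or control replicate 1 or 3 (adjusted p = 0.059 to 0.074 in limma). Its gap between slides was −1.97, and with slide as a term the difference was −1.78 (adjusted p = 0.70 in limma). The bound takes the lowest signal detected on each array as the most an undetected miRNA could have. MiR-298 and let-7f* were detected in 0 of 3 control and 3 of 3 Wnt3a samples at levels too low for such a bound.

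MiR-335-3p, miR-181c and miR-139-3p were detected in 1 of 3 control and 3 of 3 Wnt3a samples. MiR-335-3p had total signals of 0.1, 6.6 and 0.1 in control and 56.8, 67.8 and 54.7 in Wnt3a samples, where 0.1 stands for undetected. The arrays labelled Activin A read 4.57 and 4.07 on the control slide and 6.68 on the Wnt3a slide on the log2 scale, beside 6.66, 6.48 and 6.48 with Wnt3a. MiR-335-5p, the other strand of the same hairpin, had a difference of −0.09 (adjusted p = 0.60 in limma). MiR-139-3p passed narrowly (adjusted p = 0.041 in limma), and did not with the replicate block (adjusted p = 0.068) or without any 1 of 10 of the 12 day 1 arrays (adjusted p = 0.055 to 0.127). MiR-181c and let-7f* did not pass without any 1 of the Wnt3a arrays or control replicate 1 or 3 (adjusted p = 0.071 to 0.102 and 0.058 to 0.079 in limma), nor miR-298 without Wnt3a replicate 1 or 3 or control replicate 1 or 3 (adjusted p = 0.055 to 0.063 in limma). MiR-335-3p and miR-468 passed whichever 1 array was left out. None of these 7 passed with slide as a term over the 12 arrays of day 1.

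At day 3 the same comparison gave 114 of 326 miRNAs at an adjusted p under 0.05 (35%), 51 higher and 63 lower. Of these, 10 (3.07% of the 326) differed by more than 2-fold. The control and Wnt3a arrays of day 3 lay on one slide, apart from control replicate 1, which lay on the slide of the day 1 Wnt3a arrays. In the miR-290 cluster 11 of 13 rose and 0 fell at day 3, including 5 of 6 3p and unstarred strands. In the miR-302 cluster 0 of 8 rose and 4 fell. In the Dlk1-Dio3 cluster 26 of 51 fell and 0 rose. MiR-150 was undetected in 3 of 3 control samples and detected in 3 of 3 Wnt3a samples at day 3, at log2 levels of 3.015, 3.103 and 3.015.

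The difference between the days was tested directly as the Wnt3a effect at day 1 minus that at day 3, and passed for 66 of 333 miRNAs (19.8%) in limma. For miR-302b it was 1.45 (SE 0.11, adjusted p = 1.43e-07), from 0.68 at day 1 and −0.77 at day 3. For miR-96 it was −0.70 (SE 0.10, adjusted p = 6.29e-05 in limma), from −0.43 and 0.27. For miR-31 it was 0.65 (SE 0.15, adjusted p = 0.0040 in limma), from 0.65 and 0.00. For miR-150 and miR-290-5p it did not pass (adjusted p = 0.050 for both in limma). Because the day 1 groups lay on different slides, a slide difference enters this contrast in full, and with slide as a term 40 of 333 passed.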

How the data were processed

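The members, lists and tests were chosen with earlier results of these data known. The authors deposited the scanner output of each array, whose intensity values had background subtracted and probes of each miRNA summed, with undetected miRNAs at 0.1. The labels name Feature Extraction 9.5.3.1 and the file headers 10.7.3.1. The other deposited values, the detection flags, come from the same output. The authors' deposited matrix of log2 values was used as an alternative only. Its 18 columns labelled Activin A or Activin A plus Wnt3a hold each other's arrays, which enter that alternative as the spread of groups of 3 under either name.

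All 39 arrays were quantile normalized together, values under a floor of 2 were set to it, and log2 was taken. MiRNAs detected on at least 2 of 3 arrays of a group were tested with limma 3.58.1 in R 4.3.3 over the 12 arrays of day 1, with Benjamini-Hochberg adjustment. A miRNA was called at more than 2-fold and an adjusted p under 0.05. The fits were tested on simulated data that held no slide difference and no undetected values, so that test does not cover either of these. The number of arrays limits the precision. Deviations of same-numbered control and Wnt3a arrays correlated at 0.36, 0.33 and 0.20, a pairing seen in the data and not given by the labels. The rule for the named miRNAs took those called, the 8 largest increases and decreases without overlap and the 5 brightest. It also took up to 4 brightest of each list and those detected in 1 group only. Some of these are left out of the text, and further list members were named after their values were seen. No 2 of the 39 arrays held identical signals.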

Additional observations from a re-analysis of the deposited data

Results flagged for a closer look

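The effect of Wnt3a at day 1 minus that at day 3 (log2) passed limma's test of the difference for 30 of the named miRNAs. Treatment and slide cannot be told apart from the 6 arrays of the day 1 effect, and with slide as a term 40 of 333 miRNAs passed this test, against 66 without. In the miR-302 cluster the difference was 1.45 for miR-302b, 0.83 for miR-302d and 0.66 for miR-302a, each higher with Wnt3a at day 1 and lower at day 3 in value. In the miR-290 cluster it was −0.54 for miR-295, −0.43 for miR-294, −0.43 for miR-292-3p and −0.38 for miR-291a-3p. Their day 1 differences were near 0 and day 3 differences above it. For miR-294, miR-292-3p and miR-291a-3p quantile normalization fixed the day 1 difference at 0. Their values here are therefore the day 3 differences with the sign turned.

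The repeat cluster of miR-297, miR-466, miR-467 and miR-669 differed by −1.35 for miR-669f, −1.13 for miR-466a-3p, −1.02 for miR-669a, −0.69 for miR-467a* and −0.68 for miR-467b. The miR-200 family differed by −0.46 for miR-200b, −0.43 for miR-429 and −0.38 for miR-200c. The miR-17-92 clusters and relatives differed by 0.80 for miR-92a and 0.36 for miR-20b. Single miRNAs differed by −0.70 (miR-96), −0.68 (miR-181d), −0.58 (miR-21), −0.58 (miR-154*), −0.37 (miR-195), 0.56 (miR-709) and 0.65 (miR-31). MiR-20b and miR-709 also kept the same rank on all 6 day 1 arrays, so that their day 1 differences were 0 after quantile normalization.

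The largest differences belong to miRNAs undetected on some day 1 arrays and depend on the floor. They were −4.03 for miR-468, 3.07 for miR-181c, 3.58 for miR-298, 3.68 for miR-139-3p, 3.77 for let-7f* and 4.47 for miR-335-3p.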

How the results depend on the processing

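The number of miRNAs called was 10, of which 3 were detected on all 6 arrays. It was 4 with each array scaled to the 75th percentile of all miRNAs, 0 and 0 after normexp background correction, 3 and 1 with no filter, 3 with miRNAs detected on all 6 arrays alone, 27 in 1 fit of all 39 arrays, 1 and 1 with slide as a term over day 1, and 4 and 1 with slide as a term over all 39 arrays. The 48 at an adjusted p under 0.05 became 93 and 4 with the 75th percentile of the miRNAs detected on all 39 arrays or of all miRNAs, 0 after normexp correction, 27 with no filter, and 1 and 4 with slide as a term over day 1 and over all arrays. The 66 that differed between days became 36 with the 75th percentile of all miRNAs, 1 after normexp correction, 33 in 1 fit of all arrays, and 40 and 7 with slide as a term over days 1 and 3 and over all arrays. The cause of these moves was not tested.

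Leaving out 1 array at a time gave 3 to 19 calls, 1 to 3 among miRNAs detected on all 6 arrays, 26 to 75 at an adjusted p under 0.05 and 53 to 96 between days, and a mean difference in detected miRNAs of 7.67 to 34.2 against 20.3. Calls fell to 3 without control replicate 1, control replicate 3 or Wnt3a replicate 1, to 4 without Wnt3a replicate 3 and to 5 without Wnt3a replicate 2, and rose to 19 without control replicate 2. The 75 came without the array labelled Activin A replicate 3. In 2 alternatives chosen after seeing the data, no scaling gave 7 calls among miRNAs detected on all 6 arrays, 14 at an adjusted p under 0.05 and 9 between days, and leaving out the arrays with fewest and most detected miRNAs gave 1 call, which was detected on all 6 arrays, 7 at an adjusted p under 0.05 and 59 between days.

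With the replicate block 9 were called, 3 of them detected on all 6 arrays, 41 passed and 62 differed between days. Among the named miRNAs the block changed the calls of miR-139-3p, miR-155 and miR-300 (adjusted p = 0.078 in limma) and no other.

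Among the named miRNAs, differences that passed in the main fit or in the alternative given turned as follows. After normexp correction they were 0.36 for let-7a, 0.0058 for miR-154*, −0.10 for miR-294*, −0.23 for miR-298, 0.26 for miR-300, 0.18 for miR-379, 0.30 for miR-96, 0.34 for miR-363, 0.082 for miR-409-3p, 0.0062 for miR-495, −0.16 for miR-295* and −0.069 for miR-291a-5p. Without scaling they were 0.22 for let-7a, 0.013 for miR-154*, 0.19 for miR-300, 0.064 for miR-379, 0.016 for miR-96, 0.18 for miR-409-3p, 0.12 for miR-495 and 0.080 for miR-18b. With slide as a term, in both fits, they were −0.38 for let-7f*, 0.013 for miR-1895 and 0.086 for miR-202-3p. With undetected values at the lowest detected signal they were −0.37 for let-7f* and −0.19 for miR-298. With the 75th percentile of the miRNAs detected on all 39 arrays they were −0.088 for miR-125b-5p, −0.40 for miR-21 and −0.25 for miR-22, and with that of all miRNAs −0.087 for miR-125b-5p. MiR-20b and miR-292-3p had no direction to turn, since quantile normalization fixed them at 0. With the 75th percentile of the miRNAs detected on all 39 arrays they stood at −0.64 and −0.38. Other differences changed sign without passing in either fit, among them miR-188-5p and miR-17, at 1.17 and −0.43 with slide as a term over day 1. Low signals limit the miRNAs undetected on some arrays most.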
